A study of Mus musculus with 30 samples.

Results

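The transcripts described here are those of the mouse mitochondrial genome in whole colon: the 37 genes whose symbol starts with mt-, out of 55487 genes in the count table. They comprise 2 ribosomal RNA (rRNA) genes, 22 transfer RNA (tRNA) genes and 13 messenger RNA (mRNA) genes. The members are defined by symbol, after each Ensembl identifier had been matched to the mm10 gene annotation.

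Total RNA of the colon of 30 mice, 5 per genotype, was read by 3′ tag sequencing (Lexogen QuantSeq, forward kit), with 1 library per mouse. The genotypes were WT, XBP1IEC-KO, Casp8IEC-KO, the double knockout XBP1IEC-KO;Casp8IEC-KO, and 2 triple knockouts that carried both of these deletions together with TNFR1IEC-KO or with MLKLKO. The Xbp1, Casp8 and TNFR1 alleles are labelled as knockouts of intestinal epithelial cells (IEC), and the MLKL allele names no cell type, so the muscle, immune, nerve and connective tissue cells of the same colon kept Xbp1, Casp8 and Tnfr1 by label. The labels give no treatment, age, sex or Cre driver. Called from Xist and Y-linked genes, 17 mice were female and 13 male. WT and the double knockout each held 1 female and 4 males, each single knockout 3 females and 2 males, the TNFR1 triple knockout 4 females and 1 male, and the MLKL triple knockout 5 females. Background on the deleted genes is brief: XBP1 drives genes of the unfolded protein response, caspase-8 is a protease of apoptosis that also holds back necroptosis, TNFR1 binds TNF, and MLKL breaches the membrane of necroptotic cells. The groups allow each knockout to be set against WT, the joint loss of Xbp1 and Casp8 against either loss alone, and each triple knockout against the double knockout.

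The mitochondrial genome is a small circle whose strands are each copied into long RNAs that run through many genes. The tRNAs lie between the other genes, and their excision cuts the long RNAs into rRNAs, mRNAs and tRNAs. The rRNAs build the mitochondrial ribosome, the mRNAs encode subunits of respiratory complexes I, III, IV and V, and the tRNAs decode them. Most mitochondrial mRNAs receive a short poly(A) tail, which in several of them completes a stop codon that the gene leaves unfinished, and mature tRNAs end in CCA. An oligo(dT) primer, as used in 3′ tag kits, can anneal to such a tail and also to runs of A inside an RNA, so a read count is not a copy number and counts of different genes are not levels that can be set against each other.

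The sequences below, from the GENCODE transcripts of GRCm38, show what such a primer could meet. The first 4 are the last 30 bases of mRNA genes with many reads, and capitals mark the stop codon or the single T that stands in for it. The mt-Nd4 gene spans chromosome M 10167 to 11544, mt-Cytb 14145 to 15288, mt-Nd2 3914 to 4951 and mt-Co1 5328 to 6872, all on the forward strand.
mt-Nd4: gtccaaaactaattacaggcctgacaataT
mt-Cytb: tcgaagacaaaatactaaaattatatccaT
mt-Nd2: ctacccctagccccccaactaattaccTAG
mt-Co1: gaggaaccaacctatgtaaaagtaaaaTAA

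The next set holds, for both rRNA genes and for mt-Nd6, the 30-base window richest in A, with every A in capitals. mt-Rnr1 spans chromosome M 70 to 1024 and mt-Rnr2 1094 to 2675 on the forward strand, and their windows, at 715 to 744 and 1479 to 1508, each hold 20 A. mt-Nd6 is the only mRNA gene on the reverse strand (13552 to 14070). Its own strand has at most 12 A in such a window (13724 to 13753), whereas the strand opposite to it has 21 (14033 to 14062). The strand setting of the read counting is not given in the sources used here, but the counts show a read divided between genes of opposite strands. In Casp8 knockout replicate 1, mt-Ty on the reverse strand held 0.5 reads and its neighbour mt-Co1 on the forward strand 6063.5. Reads of mt-Nd6 and reads of the RNA from the opposite strand thus cannot be told apart, and neither can those of the 8 tRNA genes of the reverse strand.
mt-Rnr1, sense: tAAAgtAAgcAAAAgAAtcAAAcAtAAAAA
mt-Rnr2, sense: AAActtgctAAAAAAAcAAcAAAAtcAAAA
mt-Nd6, sense: tAAttAttAtgAtgAAgttggAgtAAttAA
mt-Nd6, opposite strand: AAAAAtAAtgAActtAAAAcAAAAAtAtAA

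The last set holds the whole genes of the 7 tRNAs that were lower in the Casp8 knockout than in WT, with the longest run of A in capitals. The first 4 lie on the reverse strand and the other 3 on the forward strand. mt-Tq carries glutamine (3772 to 3842), mt-Ta alanine (5018 to 5086), mt-Tc cysteine (5192 to 5257) and mt-Te glutamate (14071 to 14139). mt-Ti carries isoleucine (3706 to 3774), and the neighbours mt-Ts2 (11613 to 11671) and mt-Tl2 (11671 to 11741) carry serine and leucine. The runs of A are 2 to 5 bases long.
mt-Tq: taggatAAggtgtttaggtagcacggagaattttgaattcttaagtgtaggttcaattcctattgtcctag
mt-Ta: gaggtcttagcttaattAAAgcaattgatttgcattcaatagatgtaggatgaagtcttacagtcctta
mt-Tc: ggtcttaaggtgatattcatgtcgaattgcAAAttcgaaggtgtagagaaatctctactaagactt
mt-Te: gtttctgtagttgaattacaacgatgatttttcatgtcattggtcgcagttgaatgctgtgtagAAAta
mt-Ti: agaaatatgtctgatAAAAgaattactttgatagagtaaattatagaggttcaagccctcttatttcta
mt-Ts2: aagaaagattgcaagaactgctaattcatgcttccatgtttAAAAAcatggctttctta
mt-Tl2: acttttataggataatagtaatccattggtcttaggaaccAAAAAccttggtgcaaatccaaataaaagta

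Library totals ran from 3516792.6 to 5823059.7 reads, and 1 read was worth about 0.232 CPM, the unit used below, in which gene reads are divided by the total of their library and scaled alike in all libraries. Casp8 stood at 52.6 to 59.0 CPM in WT and at 24.7 to 34.4 in the Casp8 knockout. In the double knockout Casp8 stood at 37.4, 20.6, 32.3, 44.4 and 43.3 CPM, all below WT. Its replicates 1, 4 and 5 lay above all 5 Casp8 knockout libraries. Replicate 4 also lay just above Xbp1 knockout replicate 4 (44.2 CPM), which by label kept Casp8. Xbp1 stood at 54.96 to 102 CPM in WT and at 50.3 to 64.7 in the Xbp1 knockout, which overlapped it. In the double knockout, labelled as lacking Xbp1 in the epithelium, it stood at 70.4 to 134 CPM, above all 5 Xbp1 knockout libraries and reaching above WT. Tnfrsf1a, which encodes TNFR1, stood at 66.9 to 81.9 CPM in WT and 51.01 to 71.9 in the TNFR1 triple knockout, again with overlap, and Mlkl at 5.85 to 10.3 in WT and 1.25 to 10.7 in the MLKL triple knockout. The tags lie at 3′ ends and the tissue holds cells outside the epithelium, so these values check the labels only in part. For the double knockout those of Xbp1 are no check, and those of Casp8 are a partial one. The library labelled Xbp1 knockout replicate 2 had 20.6 CPM of Casp8, below all 5 Casp8 knockout libraries. The library labelled MLKL triple knockout replicate 5 had 10.7 CPM of Mlkl, above all 5 WT libraries. Double knockout replicate 1 stood apart in its mitochondrial reads, as described below, and calls that change without these 3 libraries are given so beside them. Markers of colon epithelium were present in every group, with summed levels of 7516 to 12411 CPM, and those of the small intestine summed to 23.8 to 185 CPM.

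Mitochondrial genes held 23148994 reads in the 30 libraries. Of these the rRNA genes took 73.2%, the mRNA genes 26.6% and the tRNA genes 0.226%. mt-Rnr2, the RNA of the large ribosomal subunit, held 11921077.5 reads and mt-Rnr1, that of the small subunit, 5023955. Among the mRNA genes, mt-Nd4 (a subunit of complex I) held 1956938.5 reads, mt-Nd2 1257076.5, mt-Cytb (cytochrome b of complex III) 1217635 and mt-Nd1 1148132.5. mt-Nd6, mt-Co1 (the catalytic subunit of cytochrome c oxidase, complex IV) and mt-Nd5 held 210264.5, 208033.5 and 153499. Among the tRNA genes, mt-Tm (methionine) held 14681 reads and mt-Tq 13057, mt-Tp (proline) 9277.5 and mt-Te 6308.5. Counts that end in a fraction occur at genes of every class, and how the authors divided a read between overlapping genes is not given in the sources used here. mt-Ti overlaps both mt-Nd1 and mt-Tq, mt-Ts2 overlaps mt-Tl2, and mt-Nd5 overlaps mt-Nd6, so their counts are uncertain to that extent. The fractions are not confined to such genes. Of the values above 0, 63.3% were not whole at mt-Tc and 56.7% at mt-Tp, and neither gene overlaps another by its coordinates. Counts of tRNA genes may thus hold parts of reads shared with a neighbouring gene. The part of such reads in the tRNA results was not tested.

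The other 6 mRNA genes were close to empty. mt-Co2 held 10 reads in all 30 libraries together, mt-Atp8 3, mt-Atp6 29, mt-Co3 25 and mt-Nd3 3, and mt-Nd4l was listed at 0. These genes encode subunits of complexes I, IV and V, and they lie next to each other. The stretch of chromosome M from 6381 to 11042 is present a second time in the nuclear genome, on chromosome 1 from 24611535 to 24616197 (reverse strand), where the annotation places a row of 7 pseudogenes. They match their mitochondrial counterparts at 98.78% of the aligned bases or more: the copy of mt-Co2 matched at all 681 bases and that of mt-Atp6 at all 678, whereas that of mt-Co1 differed at 6 of 492. All 11 mitochondrial genes that lie wholly inside the copied stretch (6 mRNA and 5 tRNA genes) held 78 reads together, and none passed the filter on low counts. Of the 26 other genes 24 passed it, and mt-Ty (0.5 reads) and mt-Th (58 reads) did not. The 7 pseudogenes held 61 reads together, so the reads of the stretch are not found on the nuclear copy either. How reads that match several places were counted is not given in the sources used here, and its part in the low counts was not tested.

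**Figure D1:**
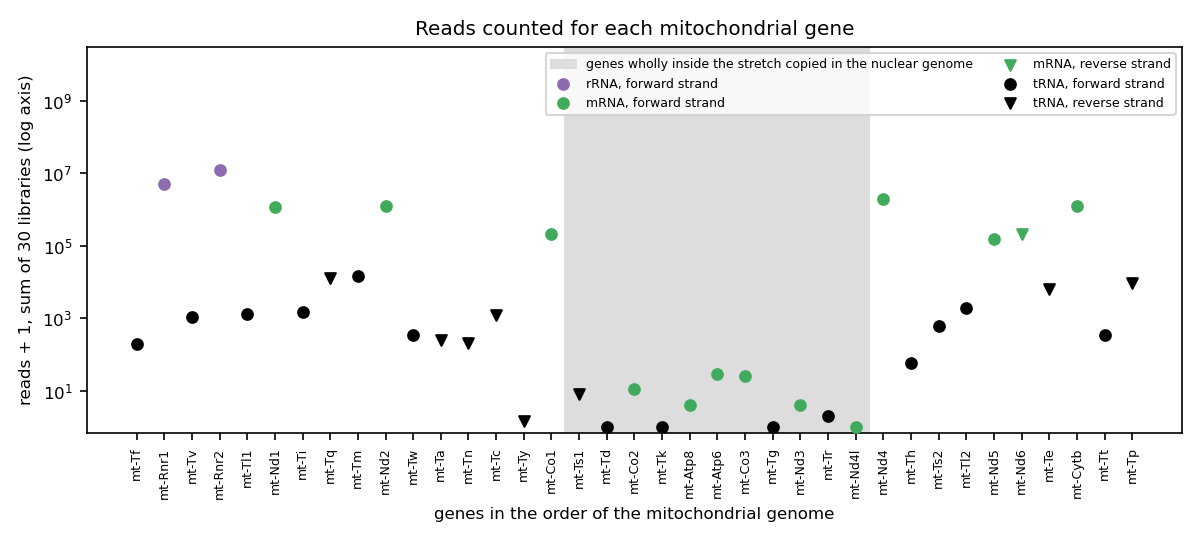
Reads of each of the 37 mitochondrial genes, summed over 30 libraries, plus 1 (vertical axis, logarithmic), in the order of the genes on the genome (horizontal axis). Colours mark the RNA class, circles the forward and triangles the reverse strand, and grey the genes wholly inside the stretch copied on chromosome 1. The 11 genes on grey hold at most 29 reads each, next to mt-Nd4 with 1956938.5.

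mt-Co1 and mt-Nd4 are copied in part: the copy starts at base 1054 of mt-Co1 and runs to its end, and it ends at base 876 of mt-Nd4. All 50-base words of the last 200 bases of mt-Co1 occur in annotated nuclear transcripts, and none of those of mt-Nd4. For mt-Nd2, which has an annotated partial copy on chromosome 2 with 11 reads in total, 52.98% of these words do. None do for mt-Nd1, mt-Nd5, mt-Nd6 or mt-Cytb. The statistics below thus cover 24 genes, namely both rRNA genes, 7 mRNA genes (mt-Nd1, mt-Nd2, mt-Co1, mt-Nd4, mt-Nd5, mt-Nd6 and mt-Cytb) and 15 tRNA genes. A gene is said to have risen or fallen where its adjusted p in edgeR's quasi-likelihood F test was under 0.05, with Benjamini-Hochberg adjustment over all 15458 genes tested in that comparison. Fold changes are log2 values with their standard error (SE).

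The share of all reads that fell on mitochondrial genes overlapped between all genotypes. WT libraries had 15.98 to 18.8%. Mice without Xbp1 had 17.2 to 22.9% and those without Casp8 16.6 to 19.1%. With TNFR1 lost as the third gene the range was 16.5 to 22.8%, and with MLKL lost it was 13.3 to 19.8%. Replicate 1 of the double knockout had 10.3%, and the others 15.997 to 19.2%. The mean of the double knockout was 15.9 ± 3.34% (SD, n = 5) with all libraries and 17.3% without replicate 1.

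**Figure D2:**
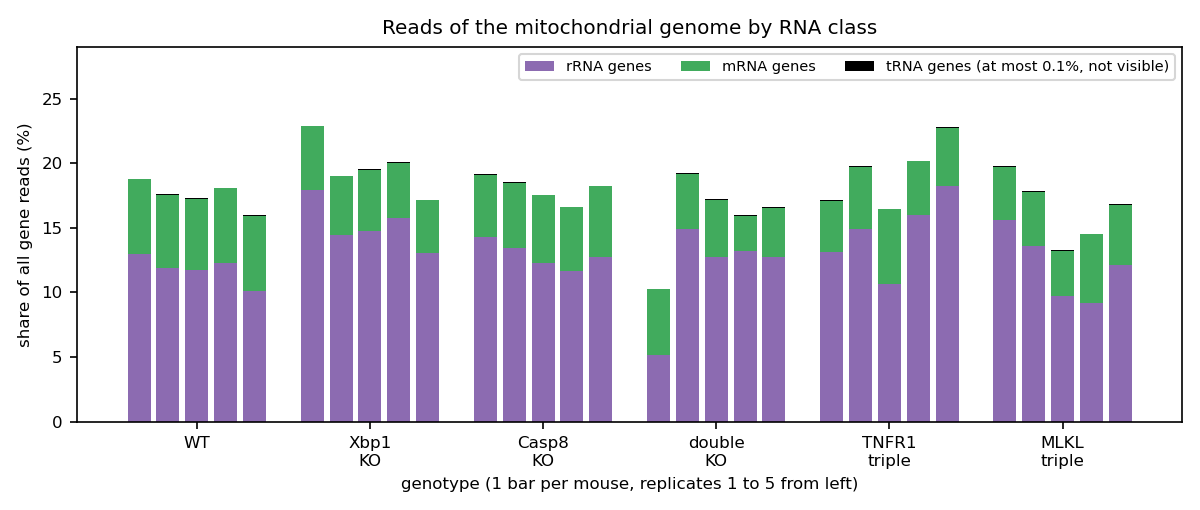
Share of all gene reads (vertical axis, percent) taken by mitochondrial rRNA and mRNA genes in each of the 30 libraries, grouped by genotype (horizontal axis); the tRNA share is too small to be visible. The WT bars have the mRNA part at 5.49 to 5.86%, and double knockout replicate 1 has the lowest bar, at 10.3%.

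The makeup of these reads differed more between genotypes than their sum. The mRNA genes took 5.77, 5.72, 5.49, 5.83 and 5.86% of all reads in the 5 WT libraries. They took 4.95, 4.52, 4.75, 4.32 and 4.12% in the Xbp1 knockout, and 4.86, 5.06, 5.23, 4.96 and 5.44% in the Casp8 knockout. The share in every library of either single knockout lay below that in every WT library. In the double knockout it was 5.12, 4.22, 4.40, 2.72 and 3.84%, again all below WT. The TNFR1 triple knockout (3.94 to 5.796%) overlapped WT through replicate 3, and the MLKL triple knockout (3.48 to 5.35%) did not overlap it. No test was made of these sums. The Casp8 knockout lay below WT only narrowly (5.44% against 5.49%), and this depends on the denominator. Among reads other than mitochondrial rRNA, the mitochondrial mRNA and tRNA genes took 5.64 to 6.2624% in the Casp8 knockout. In WT they took 6.2615 to 6.70%, so these 2 groups overlapped. The Xbp1 knockout, at 4.77 to 6.08%, did not overlap WT there.

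The rRNA genes took a higher share in the Xbp1 knockout (13.04 to 17.9%) than in WT (10.1 to 12.98%), with the lowest Xbp1 knockout library just above the highest WT library. mt-Rnr1 stood at 38188, 35130, 36023, 37914 and 31147 CPM in WT and at 55425, 44949, 44764, 46593 and 39762 in the Xbp1 knockout, and these groups did not overlap. mt-Rnr2 stood at 91652, 83496, 81615, 84595 and 69629 CPM in WT and at 123800, 99665, 102636, 110736 and 90644 in the Xbp1 knockout, and here replicate 5 of the Xbp1 knockout lay below replicate 1 of WT. Neither rRNA passed the test: mt-Rnr1 differed by 0.46 ± 0.24 (SE; adjusted p = 0.422) and mt-Rnr2 by 0.45 ± 0.21 (adjusted p = 0.353; edgeR). Both rRNAs had adjusted p of 0.199 or more in the other 9 comparisons as well.

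The ratio of the 2 mitochondrial rRNAs to each other was 2.23 to 2.40 reads of mt-Rnr2 per read of mt-Rnr1 in WT. It was 2.22 to 2.38 without Xbp1, which overlapped WT. Without Casp8 it was 2.11 to 2.22, narrowly below all WT libraries (2.217 against 2.231). The TNFR1 triple knockout had 2.39 to 2.73 and the MLKL triple knockout 2.18 to 2.99, and both overlapped WT. The double knockout spread from 2.04 to 3.67, the highest value being that of replicate 1. Reads of rRNA per read of mRNA came to 1.72 to 2.25 in WT, 2.35 to 2.94 in the Casp8 knockout and 3.10 to 3.64 in the Xbp1 knockout, so the 3 groups did not overlap. The double knockout ran from 1.001 in replicate 1 to 4.87 in replicate 4. The ratio ran from 1.84 to 4.13 where TNFR1 was lost and from 1.72 to 3.81 where MLKL was lost.

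CT010467.1, annotated as an rRNA gene on chromosome 17 (39846353 to 39848827) and chosen after its values were seen, is given beside this ratio. It stood at 15735 to 24044 CPM in WT, 29453 to 37581 in the Casp8 knockout and 37396 to 53815 in the Xbp1 knockout, with no overlap of the 3 groups. In double knockout replicate 1, the library with the lowest ratio, it stood at 11110 CPM, the lowest of all 30. The share of mitochondrial rRNA in the Casp8 knockout (11.6 to 14.3%) overlapped that in WT. The part of CT010467.1 in the rRNA to mRNA ratio was not tested. In whole tissue, fewer cells of a type and less RNA per cell cannot be told apart.

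**Figure D3:**
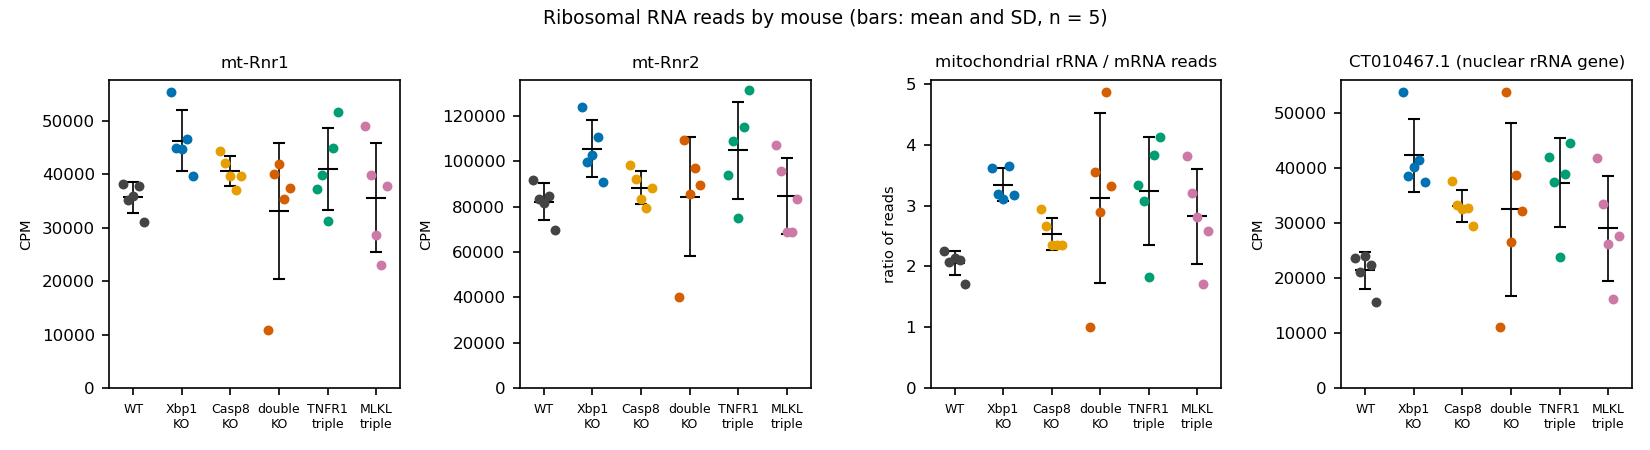
CPM of mt-Rnr1, mt-Rnr2 and the nuclear rRNA gene CT010467.1, and the ratio of mitochondrial rRNA to mRNA reads (vertical axes), by genotype (horizontal axis). Each point is 1 mouse and black bars give mean and SD (n = 5). The ratio runs from 1.72 to 2.25 in WT and from 3.10 to 3.64 in the Xbp1 knockout, and double knockout replicate 1 is lowest in all 4 panels.

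In the Xbp1 knockout no mitochondrial gene passed the test. Of the 24 genes, 0 passed the test against WT, where 0.0841% of all genes tested did; mt-Rnr1 lay above WT in all libraries and mt-Nd4 and mt-Cytb below, where 1.03% and 4.66% of all genes did; 4 had an unadjusted p under 0.05, and DESeq2 called 1. The gene nearest to the threshold was mt-Te, at 192, 262, 29.7, 37.9 and 42.0 CPM in WT and 22.1, 24.2, 34.0, 24.9 and 25.1 in the Xbp1 knockout. WT replicates 1 and 2 stood far above all other libraries, and mt-Te differed by −2.03 ± 0.45 (adjusted p = 0.0664, edgeR). It was the gene that DESeq2 called (adjusted p = 0.0132). No share of all genes is given here for unadjusted p or for DESeq2. mt-Nd4 was lower in all 5 Xbp1 knockout libraries (13667, 14695, 14585, 11660 and 12940 CPM) than in all 5 WT libraries (19368, 19970, 20061, 20966 and 22435), with a difference of −0.52 ± 0.18 (adjusted p = 0.2001, edgeR); a fit of these 2 groups alone called it (adjusted p = 0.0275). mt-Cytb stood at 11306, 10959, 11135, 11353 and 10505 CPM in WT and at 9555, 7658, 9226, 8775 and 8825 in the Xbp1 knockout, again without overlap (−0.24 ± 0.16, adjusted p = 0.544).

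All 7 mRNA genes tested had a log2 fold change below 0 in the Xbp1 knockout, with a median of −0.10, beside a median within 0.01 of 0 over all genes. The mRNAs did not move in proportion. Reads of mt-Nd4 per read of mt-Nd1 came to 2.00 to 2.41 in WT and 1.26 to 1.88 in the Xbp1 knockout, with no overlap. Both encode complex I subunits and lie on the same strand. Of 9 enteric neuron and glia markers tested 1 fell in the Xbp1 knockout, namely Nos1, with sums over the list of 71.9 to 125 CPM against 139 to 164 in WT and no overlap. The Nos1 call ended without the 3 doubted libraries (adjusted p = 0.0566). Of 9 goblet cell markers tested 1 fell, with sums of 5225 to 7005 CPM against 6638 to 9777. No marker of the first list was at 0 in all libraries of a group, and of the second Retnlb was at 0 in all WT libraries. The part of these in the Xbp1 knockout values was not tested.

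In the Casp8 knockout, fewer reads fell on tRNA genes. Of the 24 mitochondrial genes, 7 fell and 0 rose against WT, where 1.17% of all genes tested were called and 0.537% fell, and all 7 were tRNA genes. In 12 of the 24 all 5 libraries lay below all WT libraries, where 3.86% of all genes did so, and in 1, mt-Nd2, all lay above, where 1.84% did. All 15 tRNA genes tested had a log2 fold change below 0, with a median of −1.56 beside a median within 0.01 of 0 over all genes. The 7 mRNA genes had a median of −0.17 and both rRNA genes lay above 0, and none of these 9 was called. The tRNA genes together took 0.0219, 0.0210, 0.0176, 0.0225 and 0.0193% of the reads in the Casp8 knockout, and 0.0603, 0.0595, 0.0354, 0.0327 and 0.0435% in WT. The highest Casp8 knockout library, at 225 CPM, lay below the lowest of the 25 other libraries, at 283. In reads, a Casp8 knockout library held 703.5 to 896 on all tRNA genes and a WT library 1398.5 to 2679.5.

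mt-Tq had the most reads of these 7. It stood at 149, 134, 64.7, 62.1 and 119.5 CPM in WT and at 34.7, 23.9, 26.9, 32.4 and 28.6 in the Casp8 knockout. All 5 Casp8 knockout libraries lay below the other 25, of which the lowest had 58.0 CPM. mt-Tq fell by 1.79 ± 0.31 on the log2 scale (adjusted p = 0.00293, edgeR), and it fell in each of the alternative fits too.

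mt-Tc stood at 12.3, 6.40, 5.25, 9.48 and 8.39 CPM in WT and at 1.28, 1.05, 0.570, 0.502 and 1.24 in the Casp8 knockout, which is 22 to 54.5 reads against 2 to 4.5. The Casp8 knockout again lay below all other libraries (3.78 CPM or more), and mt-Tc fell by 3.23 ± 0.64 (adjusted p = 0.0102, edgeR). mt-Ta stood at 3.94, 4.06, 1.19, 1.40 and 3.79 CPM in WT and 0.995, 0.261, 0.684, 0.126 and 0.550 in the Casp8 knockout, which is 0.5 to 3.5 reads in the latter. These groups did not overlap, and mt-Ta fell by 2.34 ± 0.48 (adjusted p = 0.0112, edgeR).

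mt-Ts2 stood at 3.37, 3.2005, 6.80, 3.16 and 6.23 CPM in WT and at 0, 1.31, 0.114, 0.753 and 1.10 in the Casp8 knockout, and fell by 2.75 ± 0.58 (adjusted p = 0.0136, edgeR). Its neighbour mt-Tl2 stood at 12.2, 7.39, 11.3, 14.6 and 16.8 CPM in WT and at 3.98, 5.23, 3.19, 4.77 and 3.02 in the Casp8 knockout, and fell by 1.56 ± 0.38 (adjusted p = 0.0351). Neither gene's groups overlapped, but the mt-Tl2 call ended in 8 of the 10 fits that left out 1 library (all but WT replicate 2 and Casp8 knockout replicate 2), with adjusted p of up to 0.0933. At counts of 5 or fewer reads, as for mt-Ts2, mt-Ta and mt-Tc in the Casp8 knockout, the size of a fold change rests on few reads and on the fit.

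mt-Ti stood at 23.95, 15.1, 9.67, 9.71 and 11.5 CPM in WT and at 5.54, 6.66, 5.59, 7.03 and 3.71 in the Casp8 knockout, and fell by 1.22 ± 0.25 (adjusted p = 0.0112, edgeR). mt-Te stood at 22.04, 30.3, 29.8, 33.9 and 28.2 CPM in the Casp8 knockout, a range that reaches the 3 lower WT libraries (29.7 to 42.0). It fell by 1.91 ± 0.45 (adjusted p = 0.0249, edgeR). Without WT replicate 1, WT replicate 2, or Casp8 knockout replicate 1, 3 or 4 it was no longer called, with adjusted p of up to 0.133.

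**Figure D4:**
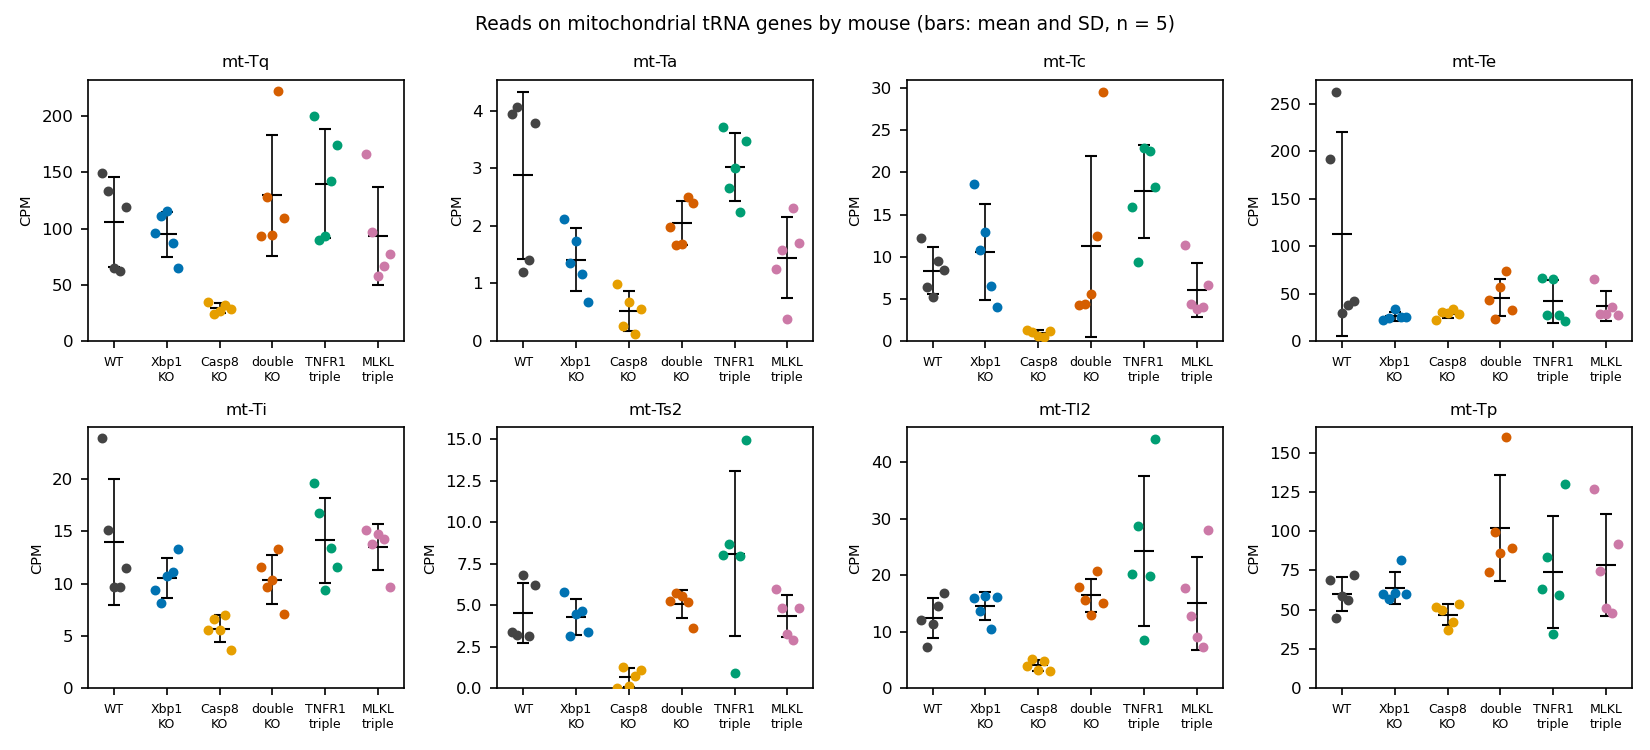
CPM of 8 mitochondrial tRNA genes (vertical axes) by genotype (horizontal axis); each point is 1 mouse and black bars give mean and SD (n = 5). The Casp8 knockout points lie lowest for mt-Tq (23.9 to 34.7), mt-Tc (0.502 to 1.28), mt-Ti (3.71 to 7.03) and mt-Tl2 (3.02 to 5.23), and WT replicates 1 and 2 stand apart for mt-Te.

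The low tRNA reads of the Casp8 knockout were found at genes annotated on both strands; the strand of the reads is not known. Genes of the reverse strand summed to 95.4 to 112 CPM in the Casp8 knockout and 160.04 to 456 in WT. Genes of the forward strand summed to 80.8 to 115 and 139 to 194. In 4 of the 15 tRNA genes (mt-Ti, mt-Tq, mt-Tc and mt-Tl2) all 5 Casp8 knockout libraries lay below the 25 others. The share of all genes tested that lay so was not computed, so this count has no background beside it. The 8 tRNA genes not called included mt-Tm (56.5 to 83.8 CPM against 92.6 to 139 in WT; −0.65 ± 0.24, adjusted p = 0.174) and mt-Tp (37.3 to 53.7 against 44.7 to 72.2; −0.30 ± 0.28, adjusted p = 0.643). mt-Tf held 0 to 1 read in each Casp8 knockout library and 1 to 9 in each WT library, so no fold is given for it.

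Other values moved with the Casp8 knockout. Malat1, a nuclear long non-coding RNA chosen after its values were seen, stood at 12341 to 15358 CPM against 10078 to 11377 in WT, and CT010467.1 was higher as given above. Of 10 fibroblast markers 1 fell and none rose, and their summed level was 1651 to 2684 CPM against 2594 to 3514, with overlap. None of 9 enteric neuron and glia markers tested was called, and their sums did not overlap, at 82.6 to 124 CPM against 139 to 164. Of 9 plasma cell markers 1 rose and none fell, with a sum of 1587 to 5873 CPM against 454 to 1587. Without the 3 doubted libraries 4 of these 9 rose, where 2.32% of all genes were called. In no group was a marker of these 3 lists at 0 in all libraries. The part of these in the tRNA result was not tested. With the sex of the mouse as a term, called from Xist and Y-linked genes, 6 of the tRNA genes were called, mt-Te being lost.

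The ratio among mRNA reads moved too, although no mRNA was called. mt-Nd2 stood at 11590, 11272, 10265, 11754 and 11751 CPM in WT and at 12779, 11799, 13296, 12114 and 12793 in the Casp8 knockout. mt-Nd1, which lies just upstream of it, stood at 9669, 9545, 9031, 9064 and 9290 in WT and at 6862, 7633, 6779, 7696 and 7343 in the Casp8 knockout. mt-Nd2 was thus above, and mt-Nd1 below, the WT range in all 5 libraries, with differences of 0.21 ± 0.21 (adjusted p = 0.675) and −0.30 ± 0.12 (adjusted p = 0.210; edgeR). The ratio of mt-Nd2 to mt-Nd1 reads was 1.14 to 1.30 in WT and 1.55 to 1.96 in the Casp8 knockout, above the highest value in every other group (at most 1.45). mt-Cytb, at 8299 to 9723 CPM, lay below WT as well (−0.24 ± 0.16, adjusted p = 0.477, edgeR). Reads of mt-Nd6 per read of mt-Nd5, its neighbour on the other strand, came to 1.54 to 1.86 in the Casp8 knockout and 1.11 to 1.50 in WT.

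The double knockout had fewer reads of several mRNAs than WT. Of the 24 genes 4 fell and 1 rose, where 21.3% of all genes were called (11.1% higher and 10.2% lower), so the share was near the background. The libraries lay below all WT libraries for 3 genes and above for 2, where 7.98% and 4.84% of all genes did. mt-Nd4 stood at 17926, 10752, 13257, 6944 and 12332 CPM in the double knockout, all below WT, and fell by 0.70 ± 0.18 (adjusted p = 0.00605, edgeR). mt-Nd2 stood at 3673, 8863, 8687, 4683 and 7481, also all below WT, and fell by 0.69 ± 0.21 (adjusted p = 0.0172). The mt-Nd2 call ended without double knockout replicate 4 (adjusted p = 0.0571) and without the 3 doubted libraries (adjusted p = 0.0508). Without those 3 libraries mt-Cytb was called as well, with a fall of 0.49 (adjusted p = 0.0198).

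mt-Co1 stood at 2004, 1959, 1841, 1813 and 1850 CPM in WT and at 917, 1461, 1570, 1114 and 1578 in the double knockout, and fell by 0.45 ± 0.13 (adjusted p = 0.0109, edgeR). The groups did not overlap, and the call ended in a fit of these 2 groups alone (adjusted p = 0.0525). mt-Co1 was also the 1 mitochondrial gene called in the double knockout against the Xbp1 knockout, where 8.64% of all genes were called and 3.86% fell, with a fall of 0.41 ± 0.13 (adjusted p = 0.0393). That call ended without the 3 doubted libraries (adjusted p = 0.105) and without any 1 of Xbp1 knockout replicates 1, 3 and 4 or double knockout replicates 1 and 4.

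mt-Te stood at 43.02, 22.97, 56.9, 73.5 and 33.02 CPM in the double knockout, overlapping the 3 lower WT libraries. Among the tRNA genes, mt-Te fell against WT by 1.24 ± 0.43 (adjusted p = 0.0375) and mt-Tp rose by 0.83 ± 0.27 (adjusted p = 0.0278; edgeR). mt-Tp stood at 74.0, 99.7, 86.4, 159.9 and 89.4 CPM in the double knockout and at 68.7, 44.7, 58.7, 55.9 and 72.2 in WT, without overlap. The mt-Te call again ended without WT replicate 1 or 2, without double knockout replicates 1, 2 or 5, and without the 3 doubted libraries (adjusted p = 0.0804). The mt-Tp call ended without WT replicate 2, 3 or 4 or double knockout replicate 4, with adjusted p of up to 0.137.

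**Figure D5:**
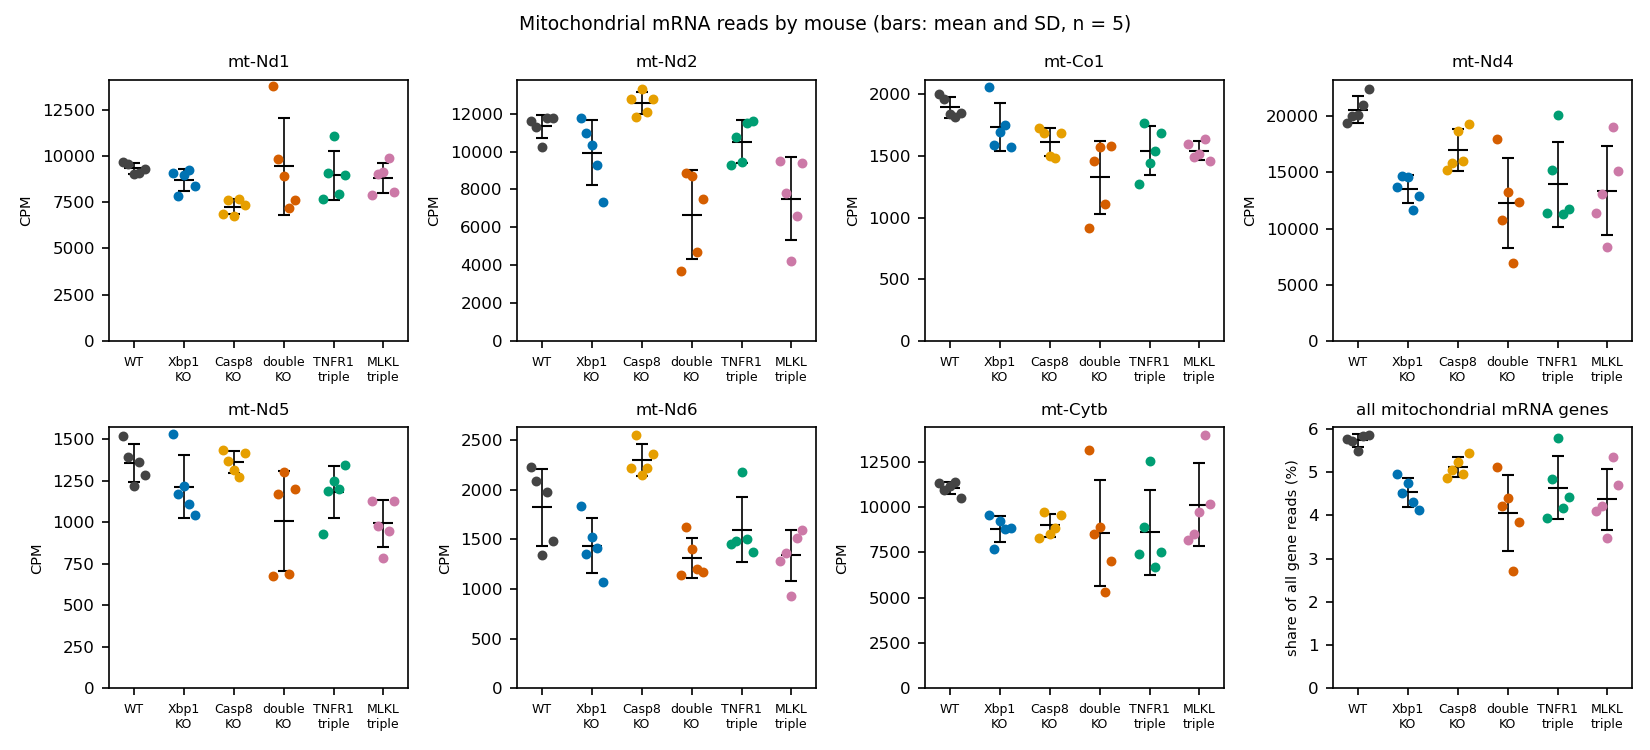
CPM of the 7 mitochondrial mRNA genes tested and their share of all gene reads in percent (vertical axes), by genotype (horizontal axis); each point is 1 mouse and black bars give mean and SD (n = 5). mt-Nd4, mt-Nd2 and mt-Co1 of the double knockout lie below WT in all 5 mice. The mRNA share of WT, 5.49 to 5.86%, lies above that of both single knockouts, narrowly for the Casp8 knockout (up to 5.44%).

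The mRNAs of 1 library did not move as a block. In double knockout replicate 1, mt-Nd1 (13751 CPM) was higher than in the 29 other libraries, while mt-Nd2 (3673) and mt-Co1 (917) were lower than in all of them. Its mt-Nd2 to mt-Nd1 ratio was 0.267, whereas the 4 others had 0.652 to 0.983. mt-Rnr1 stood at 10977 CPM and mt-Rnr2 at 40294, where the 4 others had 35377 to 41989 and 85605 to 109361.

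Some nuclear genes of the respiratory chain rose in the double knockout against WT, where 11.1% of all genes rose; no test compared them with the mitochondrial mRNAs. Of 36 complex I subunit genes 10 rose and none fell, with Ndufv2 at 0.29 ± 0.08 and Ndufa11 at 0.34 ± 0.09 (adjusted p = 0.00831 and 0.00889, edgeR). Of 9 complex III genes 7 rose and none fell, led by Cyc1, the cytochrome c1 subunit (0.54 ± 0.10, adjusted p = 0.00028). Of 13 complex IV genes 4 rose, among them Cox4i1 (0.38 ± 0.11), and of 16 complex V (ATP synthase) genes 7 rose, among them Atp5d (0.53 ± 0.11), with none falling in either list. Of 4 complex II genes, all of which are nuclear, none was called, and 1 had an unadjusted p under 0.05. The median log2 fold changes were 0.23, 0.47, 0.25 and 0.24 for complexes I, III, IV and V, beside 0.01 over all genes and −0.42 for the 7 mitochondrial mRNA genes. Without the 3 doubted libraries the genes that rose came to 3, 5, 2 and 7 for complexes I, III, IV and V, where 19.8% of all genes were called in either direction.

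Among genes that act on mitochondrial RNA the share called was not above the background. Of 39 tested genes of RNA processing, tails and decay 3 rose and 1 fell, where 21.3% of all genes were called. Pus1, a pseudouridine synthase that acts on tRNAs, rose by 0.87 ± 0.16 (adjusted p = 0.000224), Pde12, which removes poly(A), by 0.43 ± 0.14, and Tbrg4 by 0.30 ± 0.10, whereas the oligoribonuclease gene Rexo2 fell by 0.37 ± 0.10 (adjusted p = 0.00753, edgeR). Of 23 genes of transcription and replication of the mitochondrial genome 1 fell (Dguok, by 0.31 ± 0.10) and none rose. Of 11 regulators of mitochondrial biogenesis Ppargc1a fell by 0.51 ± 0.18 (adjusted p = 0.0383), and of 12 protease and chaperone genes Hspa9 and Hspe1 rose. The calls of Tbrg4 and Hspe1 ended without the 3 doubted libraries (adjusted p = 0.0766 and 0.0729). In that setting 3 genes of RNA processing, tails and decay rose and 2 fell, and 2 regulators of biogenesis fell.

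The cell types of the tissue differed between these groups in their markers, where 11.1% of all genes rose and 10.2% fell. All 10 smooth muscle markers fell in the double knockout, with sums of 3295 to 4856 CPM against 7342 to 9949 in WT. Of 9 plasma cell markers 7 rose, with sums of 2566 to 15278 against 454 to 1587, and of 11 colon epithelium markers 7 rose, with sums of 9558 to 12411 against 7861 to 9346. Fibroblast markers fell in 6 of 10, and 4 of 9 enteric neuron and glia markers tested fell, with sums of 84.3 to 110 against 139 to 164. None of these 5 lists had a marker at 0 in all libraries of either group. The other lists are given without the 3 doubted libraries, where 19.8% of all genes were called. There 6 of 6 T and NK cell, 3 of 3 neutrophil and 8 of 12 monocyte and macrophage markers tested rose, and none fell. Goblet cell markers went both ways, with 3 of 9 up and 3 down. Of 12 absorptive colonocyte markers 3 rose and 1 fell, and of 3 small intestine markers 1 fell. The part of all these lists in the mitochondrial and respiratory chain results was not tested.

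Set against the Casp8 knockout, the double knockout had more reads on tRNA genes and fewer on some mRNA genes. Of the 24 genes 11 rose and 2 fell, where 18.4% of all genes were called (9.68% higher and 8.71% lower); 10 of the 11 that rose were tRNA genes. The comparison shares the Casp8 knockout libraries with the one against WT, so the low tRNA values of the Casp8 knockout enter both. mt-Tq stood at 93.9, 128, 94.4, 222 and 109 CPM in the double knockout and rose by 2.15 ± 0.32 (adjusted p = 5.09e-05, edgeR). mt-Tc stood at 4.29, 4.43, 5.56, 12.5 and 29.5 CPM and rose by 3.69 ± 0.62 (adjusted p = 0.0002). mt-Tl2 stood at 17.9, 15.7, 12.9, 20.7 and 15.1 CPM and rose by 2.02 ± 0.37 (adjusted p = 0.000489). Such a separation held for 9 of the 24 genes upward and 2 downward, where 3.93% and 4.25% of all genes did so, and for these 3 tRNA genes among them.

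The other tRNA genes that rose were mt-Ts2 (2.97 ± 0.57), mt-Ta (1.88 ± 0.49), mt-Tt (threonine, 1.63 ± 0.38), mt-Tp (1.13 ± 0.28), mt-Ti (0.84 ± 0.25), mt-Tn (asparagine) and mt-Tf (phenylalanine), with adjusted p between 0.000696 and 0.0277. For mt-Tf and mt-Tn the Casp8 knockout libraries held 0 to 1.5 reads, and no fold is given. The mt-Ti call ended without Casp8 knockout replicate 5 or double knockout replicate 4, and the mt-Tn call without Casp8 knockout replicate 2, 3 or 5 or double knockout replicate 4 or 5. The other 8 tRNA calls held without each single library.

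Among the mRNA genes mt-Nd2 fell against the Casp8 knockout by 0.90 ± 0.21 (adjusted p = 0.00347) and mt-Nd6 by 0.80 ± 0.16 (adjusted p = 0.00101, edgeR). mt-Nd6 stood at 1145, 1623, 1402, 1200 and 1175 CPM in the double knockout and at 2216, 2549, 2150, 2217 and 2362 in the Casp8 knockout, and neither gene's groups overlapped. mt-Nd1 rose by 0.37 ± 0.12 (adjusted p = 0.0259), a call that ended without the 3 doubted libraries (adjusted p = 0.125) and without any 1 of Casp8 knockout replicates 1, 3 and 5 or double knockout replicates 1 and 2. mt-Nd4 was not called with all libraries (−0.49 ± 0.18, adjusted p = 0.0581) and was called without those 3 (−0.63, adjusted p = 0.0206). In the same comparison, where 9.68% of all genes rose, 16 of 36 nuclear complex I genes rose, 7 of 9 complex III genes rose and 1 fell, and 9 of 13 complex IV and 6 of 16 complex V genes rose. Without the 3 doubted libraries 9, 5, 6 and 4 rose, in that order of the complexes.

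The effect of Casp8 loss was compared directly between mice with and without Xbp1. This interaction was called for 5 of the 24 genes, all tRNA genes and all in the same direction, where 1.38% of all genes were called and 0.712% were called in that direction. The change on Casp8 loss was higher without Xbp1 by 2.22 ± 0.43 for mt-Tq (adjusted p = 0.0128), 2.79 ± 0.63 for mt-Ta, 3.25 ± 0.79 for mt-Tc, 2.95 ± 0.73 for mt-Ts2 and 2.70 ± 0.63 for mt-Te (adjusted p = 0.0288 to 0.0428; edgeR). It uses the same Casp8 knockout libraries once more. For mt-Tq the Xbp1 knockout stood at 95.9, 111, 115, 87.1 and 64.9 CPM, close to the double knockout, whereas WT and the Casp8 knockout were apart. With sex as a term, or without the 3 doubted libraries, 1 gene was called, mt-Tq, and with the replicate number as a block 2 were. The calls of mt-Tc and mt-Ts2 ended without most single libraries, in 12 and 13 of 20 fits, and those of mt-Te and mt-Ta in 10 and 5.

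No mitochondrial gene was called in either triple knockout against the double knockout. All 5 MLKL triple knockout mice were called female, as were 4 of 5 with TNFR1 lost, against 1 of 5 in both WT and the double knockout, so these comparisons are largely confounded with sex. With sex as a term 0 mitochondrial genes were called in them as well. With TNFR1 lost, 0 of 24 genes were called in edgeR, where 2.35% of all genes were; 2 had an unadjusted p under 0.05 and DESeq2 called 2. These were mt-Tm, at 116.7, 199, 73.7, 143 and 263 CPM against 77.3 to 125 in the double knockout (0.76 ± 0.23, adjusted p = 0.0780 in edgeR), and mt-Nd2, at 9285, 10746, 9428, 11530 and 11628 CPM, above all 5 double knockout libraries (0.66 ± 0.21, adjusted p = 0.0829). mt-Nd2 was the 1 gene with such a separation, which 0.97% of all genes showed. With MLKL lost, 0 of 24 genes were called, where 7.65% of all genes were. There 0 had an unadjusted p under 0.05 and DESeq2 called 0. For neither triple knockout is a share of all genes given at unadjusted p or by DESeq2.

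Against WT the triple knockouts gave 0 calls in edgeR too, where 2.12% (TNFR1) and 0.854% (MLKL) of all genes were called. At unadjusted p 8 genes passed 0.05 in each, and DESeq2 called 1 and 2 genes, in that order. No share of all genes is given beside these counts, so they cannot be read as an excess. Libraries of the MLKL triple knockout lay below all WT libraries for 4 genes, where 2.79% of all genes did so. For the TNFR1 triple knockout this held for 1 gene, mt-Co1, where 3.38% did. With MLKL lost, mt-Nd4 stood at 11388, 13044, 8403, 18987 and 15102 CPM, below all WT libraries (−0.61 ± 0.18, adjusted p = 0.1002). mt-Nd2 (9489, 7820, 4241, 6595 and 9422 CPM) was below all WT libraries as well (−0.57 ± 0.21, adjusted p = 0.176). In the TNFR1 triple knockout mt-Tl2 stood at 20.2, 28.6, 8.58, 19.9 and 44.1 CPM (1.06 ± 0.32, adjusted p = 0.0702). A call in 1 comparison and none in another is no test of their difference.

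The nuclear genes gave few calls in the triple knockouts. Pus1 rose against WT in both, by 0.77 ± 0.16 (TNFR1, adjusted p = 0.0107) and 0.85 ± 0.16 (MLKL, adjusted p = 0.00947), with all 5 libraries of each above WT. Mtpap, the mitochondrial poly(A) polymerase, rose in the TNFR1 triple knockout by 0.78 ± 0.15 against WT (adjusted p = 0.00717) and by 0.63 ± 0.15 against the double knockout (adjusted p = 0.0262; edgeR). No nuclear gene of complexes I to V was called against WT in either triple knockout. Without the 3 doubted libraries 1 complex III and 1 complex V gene rose in the TNFR1 triple knockout, where 2.83% of all genes were called. Against the double knockout, Ndufa7 and Uqcr10 fell where TNFR1 was lost. Where MLKL was lost, Ndufa11, Uqcrq, Uqcrb and Atp5d fell, and Uqcrh and Ppargc1a rose. Without the 3 doubted libraries only Uqcrh and Ppargc1a of these 8 genes were still called, and the Mtpap call against the double knockout ended (adjusted p = 0.0602).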

How the data were processed

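Gene counts of 30 mouse colon libraries, 1 per mouse, were used as the authors deposited them. Per the labels' protocols, 2 µg of RNA with a RIN above 7 was taken per mouse. The submitters' processing notes name cutadapt 3.2, Subread, featureCounts 2.01, R 4.0.0 and GRCm38/mm10; how reads on several places, overlapping genes or strands were counted is not given in the sources used here. The deposited values are estimated counts: 11.2% of the values above 0 are not whole, and they were rounded for testing, which moved a library total by at most 0.00321%. The 92 spike-in features held 0 reads. CPM was computed over the total of all genes.

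Identifiers were matched to GENCODE GRCm38 symbols (55227 of 55487). All 30 libraries entered 1 edgeR 4.0.16 fit (R 4.3.3, TMM scaling, filterByExpr, 1 coefficient per genotype, common biological coefficient of variation 0.186), giving 10 comparisons. The labels number the replicates, and each is a separate mouse. The script was tested on simulated counts. Alternatives were other scalings and filters, DESeq2 1.42.0, fits of the compared groups alone, sex as a term, a replicate block and leaving out libraries; leaving out the 3 doubted libraries was added after seeing the data.

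Any mt- gene could be named, and from each other list at most 4 called genes of smallest p. The members and lists were chosen with earlier results of these data known.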

Additional observations from a re-analysis of the deposited data

Results flagged for a closer look

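In 168 groups of 5 libraries, 12 held 1 library that stood apart by Dixon's criterion; chance gives about 1 in 20. Double knockout replicate 1 had 49.8% of its mitochondrial reads on rRNA genes, against 74.2 to 82.6% in the other 4, and 10977 CPM of mt-Rnr1, against 35377 to 41989. It also had 7.81 CPM of mt-Tt, against 2.78 to 3.09. Double knockout replicate 4 had 222 CPM of mt-Tq, against 93.9 to 128, and replicate 5 had 3.64 CPM of mt-Ts2, against 5.23 to 5.74. In the Xbp1 knockout, replicate 4 had 81.4 CPM of mt-Tp, against 56.6 to 60.5, and 4.29 CPM of mt-Tt, against 1.70 to 2.39. Replicate 3 of that group had 34.0 CPM of mt-Te, against 22.1 to 25.1. WT replicate 1 had 5.29 CPM of mt-Tw (tryptophan), against 2.63 to 3.32. In the TNFR1 triple knockout, replicate 3 had 2178 CPM of mt-Nd6, against 1377 to 1508. In the MLKL triple knockout, replicate 5 had 9.73 CPM of mt-Ti, against 13.8 to 15.1, and replicate 1 had 64.9 CPM of mt-Te, against 27.5 to 36.2.

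The change on Casp8 loss differed between mice with and without Xbp1, by the interaction term, for 5 tRNA genes. The log2 differences were 2.22 for mt-Tq, 2.79 for mt-Ta, 3.25 for mt-Tc, 2.95 for mt-Ts2 and 2.70 for mt-Te. Of these only mt-Tq was still called with sex as a term or without the 3 doubted libraries.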

How the results depend on the processing

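Of 31 calls of mitochondrial genes, 18 held in every fit that left out 1 library, 21 in all 9 other settings and 17 in both, and 0 reversed. Another 24 results were called under an alternative alone. With 1 library left out, the number of genes called ran from 5 to 7 for the Casp8 knockout and 0 to 1 for the Xbp1 knockout against WT, 3 to 7 for the double knockout against WT, 0 to 2 against the Xbp1 knockout and 10 to 14 against the Casp8 knockout. It ran from 1 to 6 for the interaction, 0 to 3 for the TNFR1 and 0 to 1 for the MLKL triple knockout against WT, and 0 to 2 and 0 to 0 for these against the double knockout. Without a low-count filter 1 gene was called in the Xbp1 knockout, 2 in the TNFR1 and 1 in the MLKL triple knockout against WT, 2 in the TNFR1 triple against the double knockout, and 0 in the double against the Xbp1 knockout. In fits of the compared groups alone these were 1 (Xbp1 knockout), 3 (double knockout) and 1 (TNFR1 triple) against WT, and 0 for the double against the Xbp1 knockout. DESeq2 gave 1, 1 and 2 for the Xbp1, TNFR1 triple and MLKL triple knockouts against WT, 2 for the double against the Xbp1 knockout and 2 for the TNFR1 triple against the double knockout. Without the 3 doubted libraries the interaction had 1 call and the double against the Xbp1 knockout 0, and with sex as a term the interaction had 1. The causes were not tested. Same-numbered libraries correlated at a mean of 0.0187 over 75 pairs (−0.4012 to 0.5324), of which 31 were over 0.1. Differently numbered libraries correlated at a mean of −0.0043 over 300 pairs, of which 88 were over 0.1. Single pairs spread widely, so these means do not decide whether the numbers pair mice. With the replicate block the interaction had 2 calls, the double against the Xbp1 knockout 0 and the double against the Casp8 knockout 13. Against WT the Casp8 knockout had 6 with the block and the double knockout 4.

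The mean mitochondrial share with 1 library left out was 17.3 to 17.96% (WT), 18.96 to 20.4% (Xbp1 knockout), 17.7 to 18.4% (Casp8 knockout), 15.02 to 17.3% (double knockout), 18.4 to 19.97% (TNFR1 triple) and 15.6 to 17.3% (MLKL triple). Without rRNA genes it was 6.55, 5.39, 5.89, 4.64, 5.48 and 5.01% in the same order. In that setting the highest Casp8 knockout library (6.2624%) lay just above the lowest WT library (6.2615%). Without the 10 largest nuclear genes the mean share was 18.7% in WT and 19.5% in the Casp8 knockout. Genes such as mt-Ta, with 0.5 to 3.5 reads per Casp8 knockout library, are limited by depth.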

Other observations

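mt-Tv (valine) had group medians of 6.27 to 9.25 CPM and mt-Tl1 (leucine) of 6.26 to 11.97, and neither was called in any of the 10 comparisons, which does not show that their levels were equal. mt-Nd5, a complex I subunit, had its lowest group median in the MLKL triple knockout, at 978 CPM (785 to 1131), below all WT libraries (1217 to 1520), without passing the test (−0.43 ± 0.16, adjusted p = 0.177, edgeR).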
